A study of Homo sapiens with 14 samples.

Results

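LIN28A, LIN28B, HMGA1, HMGA2, IGF2BP1, IGF2BP2, IGF2BP3 and TRIM71 form the LIN28 axis of the heterochronic pathway, and this account follows these 8 genes, found by symbol among the 57445 gene entries of the count tables, through the first steps of differentiation of human pluripotent stem cells toward midbrain dopamine neurons. The set was selected on 1 measured pattern, that the counts of LIN28A at day 11 stayed near its stem cell level. The levels at day 11 beside those in stem cells are therefore given as a description, without a test. All 8 genes passed the filter on low counts in each comparison described.

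The series holds RNA-seq of 14 libraries from H9 (WA-09), an established human embryonic stem cell line, in 7 groups of 2 libraries. In the 4 day 11 groups the cells were differentiated in Neurobasal medium with N2 and B27, with recombinant Sonic hedgehog (SHH C25II), the BMP receptor inhibitor LDN, the TGFβ receptor inhibitor SB431542 and the Rock inhibitor Y-27632. Every differentiated culture received 0.7 µM CHIR99021 (CHIR below), a GSK3 inhibitor that activates Wnt signalling, to day 3, and from day 4 the arms received 0.7, 3, 5 or 7.5 µM. The higher dose ended on day 10 by the protocol and on day 9 by the series text. LDN, SB431542 and SHH were withdrawn on day 7. From day 10 all arms received Neurobasal with B27, BDNF, GDNF, ascorbic acid, TGFβ3, dibutyryl cAMP and 3 µM CHIR. The day 16 and day 30 groups came from the 7.5 µM protocol after replating, in medium with the γ-secretase inhibitor DAPT, and the series text gives day 20 where the labels give day 16. Undifferentiated H9 cells kept on vitronectin in Essential 8 medium (hPSC) were the group to which day 11 was compared. Every group thus comes from 1 line, and the labels do not say whether the 2 libraries of a group came from separate cultures, so p-values measure the spread between these libraries only.

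The LIN28 proteins bind the loop of let-7 precursors and recruit the terminal uridylyltransferases TUT4 and TUT7, which tag the precursor for decay before Dicer can cut it. Mature let-7 in turn represses the mRNAs of LIN28 itself, of the HMGA chromatin proteins, of the IGF2BP RNA-binding proteins and of TRIM71, the human counterpart of the worm heterochronic gene lin-41. The pathway was named in Caenorhabditis elegans, where lin-28, let-7 and lin-41 time larval cell fates. In mammals the same genes are known to be high in pluripotent and early neural progenitor cells and to decline as let-7 accumulates.

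Mature let-7 was not measured in these libraries. The 12 let-7 family hairpin entries had 0 counts in all 14 libraries. The mature sequences are shown because the feature that joins the 8 genes is a match to their shared seed, bases 2 to 8, printed in capitals below. All 9 mature names of the family, from 12 genes, carry the seed GAGGUAG, as do 11 of the 2370 mature names in the RefSeq table for GRCh38.p14. The sequences from 4 genes show how the family differs outside the seed: MIRLET7A1 (chr9:94175962-94175983, plus strand), MIRLET7D (chr9:94178841-94178862, plus strand), MIRLET7G (chr3:52268336-52268357, minus strand) and MIR98 (chrX:53556299-53556320, minus strand).
hsa-let-7a-5p: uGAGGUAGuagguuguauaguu
hsa-let-7d-5p: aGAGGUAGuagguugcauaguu
hsa-let-7g-5p: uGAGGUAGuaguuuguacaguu
hsa-miR-98-5p: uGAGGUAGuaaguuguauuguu

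The complement of that seed in mRNA is CTACCTC, 7 bases searched on the sense strand of the 3′ UTR of 1 coding transcript per gene (GENCODE 29, GRCh38). Every one of the 8 genes had at least 1 such match, against 8.3% of all 19560 3′ UTRs (1628). The set was named from a pathway whose mRNAs let-7 represses, so nothing is read from that count. The 8.3% covers 3′ UTRs of all lengths, while in the length classes of the 8 genes 8.6 to 30.1% had a match. The matches of LIN28A, LIN28B, HMGA1, HMGA2, IGF2BP1, IGF2BP2, IGF2BP3 and TRIM71 are shown with 15 bases before and 1 base after, the match in capitals, using the match nearest the stop codon where there were several and the first 2 for TRIM71.
LIN28A: gcacagcctattgaaCTACCTCa
LIN28B: acccggttgcaaagtCTACCTCa
HMGA1: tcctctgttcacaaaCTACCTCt
HMGA2: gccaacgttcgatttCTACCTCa
IGF2BP1: tgtgtgcgaagtaaaCTACCTCa
IGF2BP2: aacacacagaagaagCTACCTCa
IGF2BP3: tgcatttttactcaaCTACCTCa
TRIM71: aacattgcttaagtcCTACCTCa
TRIM71: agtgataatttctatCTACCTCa

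TRIM71 on chromosome 3 had 6 matches in a 3′ UTR of 6015 bases, 4 of them followed by an A, the base that lengthens a let-7 match. None of the 781 3′ UTRs of like length (80 to 125% of its own) had as many. LIN28B on chromosome 6 had 4 matches, as many as 2 of its 1287 like-length 3′ UTRs. HMGA2 on chromosome 12 also had 4 matches, as did IGF2BP1 on chromosome 17. That many were present in 1 of 2012 and 3 of 718 3′ UTRs of like length. LIN28A on chromosome 1, HMGA1 on chromosome 6, IGF2BP2 on chromosome 3 and IGF2BP3 on chromosome 7 had 1 match each, and in their length classes between 8.6% and 16.7% of 3′ UTRs had at least 1. The HMGA1 match was the only one of these 4 not followed by an A. A match describes the letters of the reference transcript and says nothing about binding in these cells.

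The hPSC and day 11 tables held 20.52 to 44.76 M gene counts per library, and levels are given in CPM, counts per 1 M of these. The 50 highest genes took 11.48 to 25.32% of counts, most in replicate 1 at 0.7, 3 and 5 µM (20.45, 25.32 and 24.87%). The summed level of the stem cell markers was 33.8 to 113 CPM at day 11 and 3200 to 3280 CPM in hPSC. Neural progenitor markers summed to 1160 to 2840 CPM at day 11 and 594 to 882 CPM in hPSC, and midbrain floor plate markers to 168 to 745 CPM at day 11 and 1.08 to 1.8 CPM in hPSC. Among other cell types at day 11, neuron markers summed to 144 to 584 CPM and dopamine neuron markers to 18.3 to 49.4 CPM. Neural crest markers summed to 16.9 to 87.4 CPM. Mesenchyme markers (COL1A1, LUM and PDGFRB) summed to 13.1 to 121 CPM, and the vessel marker PECAM1 was not found among the gene entries. Mesoderm markers summed to 0.737 to 23.2 CPM, glia markers to 0.338 to 2.37 CPM and endoderm markers to at most 0.317 CPM. In bulk RNA, fewer cells of a type and less RNA per cell cannot be told apart.

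LIN28A, the paralogue that recruits the uridylyltransferases in the cytoplasm, was as high in the day 11 cultures as in stem cells. Its level was 1107 and 1781 CPM with 0.7 µM CHIR, 1515 and 1762 CPM with 3 µM, 1358 and 1510 CPM with 5 µM, 1471 and 1321 CPM with 7.5 µM, and 1348 and 1847 CPM in hPSC. The day 11 means were 90.4, 103, 89.8 and 87.4% of the hPSC mean in order of dose, and the values of every day 11 group overlapped those of hPSC. Per kilobase of transcript, the scale on which genes can be set beside each other, LIN28A had 348 to 409 CPM across the 5 groups and ranked between 88th and 151st of 18996 genes. Fitted log2 differences of the day 11 groups from hPSC, with TMM scaling, ran from −0.20 at 7.5 µM to 0.39 at 3 µM, with a standard error of 0.37. TMM scaling moved all genes by −0.04 to 0.55 on the log2 scale between the day 11 libraries and hPSC, by more than 0.1 in 5 of 8 libraries, and placed LIN28A at 87.1 to 131% of hPSC. With and without TMM, and with the 50 highest rows and mitochondrial genes left out, LIN28A lay above hPSC at 3 µM and below it at 7.5 µM; at 0.7 and 5 µM it lay below hPSC (90.4 and 89.8%) except with TMM (101 and 106%).

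LIN28B, the paralogue that can also sequester let-7 primary transcripts in the nucleus, was lower per kilobase than LIN28A in every library and more variable. Its level was 46.33 and 129.9 CPM with 0.7 µM, 30.73 and 107.7 CPM with 3 µM, 40.83 and 118.2 CPM with 5 µM, 133.6 and 196.7 CPM with 7.5 µM, and 239.5 and 193.6 CPM in hPSC. The 3 lower doses lay below both stem cell libraries without overlap, at 40.7, 32.0 and 36.7% of the hPSC mean, while the 7.5 µM libraries reached 76.3% and overlapped the stem cell range. LIN28A exceeded LIN28B per kilobase by 32.8 and 18.8 times at 0.7 µM, 67.7 and 22.5 times at 3 µM, 45.7 and 17.6 times at 5 µM, 15.1 and 9.22 times at 7.5 µM, and 7.73 and 13.1 times in hPSC. At each day 11 dose this ratio was larger in replicate 1 than in replicate 2.

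HMGA1 and HMGA2 are small proteins that bind AT-rich DNA and bend it, and both are abundant in embryonic cells. HMGA1 had the highest group means of the 8 per kilobase, at 442 to 715 CPM per kilobase over the 5 groups. In replicate 2 alone it lay below LIN28A at 0.7 µM (284 against 444 CPM per kilobase), 3 µM (418 against 440) and 7.5 µM (291 against 330). Its level was 1746 and 612.9 CPM with 0.7 µM, 2185 and 902.9 CPM with 3 µM, 1768 and 866.7 CPM with 5 µM, 1280 and 628.8 CPM with 7.5 µM, and 1161 and 1092 CPM in hPSC. Replicate 1 was the higher library at every day 11 dose, and each dose straddled the stem cell values. The means were 105, 137, 117 and 84.7% of hPSC. HMGA1 has many processed pseudogenes, and those listed in the tables held 0.651 to 1.66% as many counts as HMGA1 itself.

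HMGA2, which marks young neural stem cells in the mouse, lay below its stem cell level throughout. It was at 87.99 and 173.4 CPM with 0.7 µM, 64.13 and 109.4 CPM with 3 µM, 67.88 and 94.52 CPM with 5 µM, 215.9 and 182.0 CPM with 7.5 µM, and 356.0 and 276.8 CPM in hPSC. All 8 day 11 libraries lay below both stem cell libraries, and both 7.5 µM libraries lay above both libraries of each other dose. The means were 41.3, 27.4, 25.7 and 62.9% of hPSC.

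The 3 IGF2BP proteins bind mRNAs, IGF2 among them, and keep them stable or hold them from translation. IGF2BP1 was at 239.0 and 852.6 CPM with 0.7 µM, 249.0 and 774.2 CPM with 3 µM, 220.5 and 675.2 CPM with 5 µM, 595.8 and 671.6 CPM with 7.5 µM, and 557.3 and 665.7 CPM in hPSC. At the 3 lower doses replicate 1 lay below and replicate 2 above both stem cell libraries, so that the means of 89.3, 83.7 and 73.2% of hPSC describe neither library. At 7.5 µM both libraries were within or close to the stem cell range, with a mean of 104%.

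IGF2BP2, a paralogue known from neural progenitors in the mouse, was at 124.8 and 127.2 CPM with 0.7 µM, 63.79 and 109.4 CPM with 3 µM, 77.32 and 127.5 CPM with 5 µM, 139.0 and 173.7 CPM with 7.5 µM, and 235.0 and 204.8 CPM in hPSC. No day 11 library reached the stem cell range, and the 7.5 µM pair was the highest at day 11, with means of 57.3, 39.4, 46.6 and 71.1% of hPSC in order of dose. IGF2BP3, the paralogue known from fetal tissue and tumours, was at 91.11 and 208.4 CPM with 0.7 µM, 61.54 and 145.7 CPM with 3 µM, 55.56 and 143.1 CPM with 5 µM, 131.4 and 193.3 CPM with 7.5 µM, and 409.4 and 316.6 CPM in hPSC. It too lay below both stem cell libraries in all 8 day 11 libraries, at 41.3, 28.5, 27.4 and 44.7% of hPSC. The gene MALSU1, which overlaps IGF2BP3 on the other strand, had 425 to 987 counts in these libraries. Since the strand setting of the counting is not given, reads of such a pair cannot be told apart.

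TRIM71, an RNA-binding E3 ubiquitin ligase and repressor of mRNAs in stem cells, was the member with the widest range. It was at 52.47 and 489.0 CPM with 0.7 µM, 38.24 and 399.8 CPM with 3 µM, 26.29 and 313.4 CPM with 5 µM, 161.8 and 304.7 CPM with 7.5 µM, and 606.7 and 778.2 CPM in hPSC. All 8 day 11 libraries were below both stem cell libraries, with means of 39.1, 31.6, 24.5 and 33.7% of hPSC. The dose groups overlapped one another, and at every dose replicate 1 was the low and replicate 2 the high library.

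Across the set, HMGA2, IGF2BP2, IGF2BP3 and TRIM71 (4 of 8) lay below both stem cell libraries in all 8 day 11 libraries, and none lay above in all 8. Of the 19672 genes tested, 23.4% lay below in this way and 14.5% above. Since this contrast chose the set, nothing is read from that count or from those that follow. LIN28B joined them with TMM scaling (5 of 8, against 20.8% of genes). Read by replicate 2 alone, the 5 genes below at all doses were HMGA1, HMGA2, IGF2BP2, IGF2BP3 and TRIM71, against 31.7% of genes. LIN28A and IGF2BP1 were in neither group of 5.

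**Figure D1:**
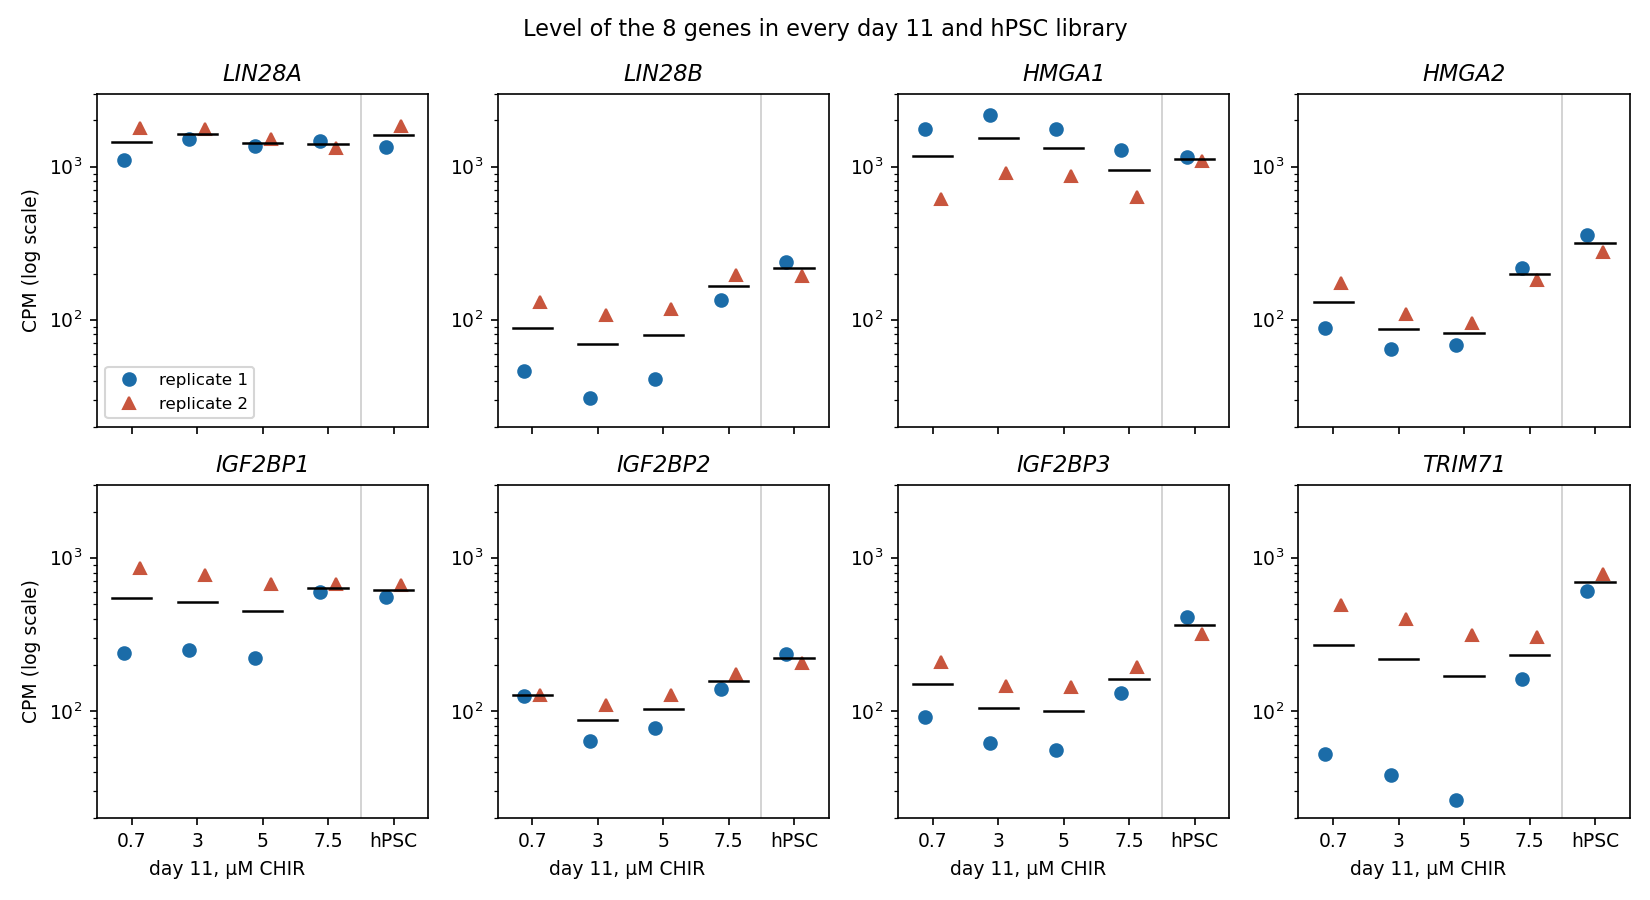
Level of each of the 8 genes (CPM, log axis) in the day 11 groups by CHIR dose and in hPSC; circles are replicate 1, triangles replicate 2 and bars the mean of 2 libraries. LIN28A stays between 1107 and 1847 CPM in all 10 libraries, whereas TRIM71 spans 26.29 to 778.2 CPM and its 2 replicates stand far apart at 0.7, 3 and 5 µM.

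Stem cell genes that are partners or companions of LIN28 gave levels to set beside that of LIN28A. POU5F1, the pluripotency factor OCT4, was at 0.374 to 1.31 CPM in the 8 day 11 libraries and at 463 and 522 CPM in hPSC, and NANOG, its partner factor, was at 0 to 0.0594 CPM at day 11 and at 15.2 and 27.0 CPM in hPSC. L1TD1, an RNA-binding protein found in complex with LIN28A, was at 0.818 to 2.83 CPM at day 11 and at 925 and 493 CPM in hPSC. The list of 6 partners, which was assembled with earlier results of these data known, had 5 genes tested against hPSC. In each of the 4 dose comparisons 4 of the 5 (L1TD1, DPPA4, DNMT3B and TDGF1) were lower at day 11 and none higher, with medians of −4.14, −4.57, −4.53 and −4.41 on the log2 scale in order of dose. Over all genes the medians were 0.04, 0.03, 0.03 and 0.05, and 11.4, 13.7, 11.4 and 10.1% of the 19672 genes were called (edgeR quasi-likelihood test, Benjamini-Hochberg adjusted p under 0.05). Including the replicate number as a block within day 11 raised these shares to 46.1, 50.1, 48.0 and 34.8%. Of the 19672 genes, 4925, 5205, 5027 and 3564 were then lower, and the partner list stayed at 4 of 5 lower.

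DNMT3B, the de novo DNA methyltransferase of stem cells, was at 91.5 and 106 CPM with 7.5 µM CHIR and 965 and 947 CPM in hPSC, a log2 difference of −3.28 ± 0.70 (SE; adjusted p = 0.0265, edgeR). DPPA4, a chromatin factor of pluripotent cells, was at 51.1 and 100 CPM with 7.5 µM and 1490 and 1690 CPM in hPSC, a log2 difference of −4.41 ± 0.63 (adjusted p = 0.0066, edgeR). For both genes all day 11 libraries lay below the stem cell libraries. The call of DNMT3B was lost on leaving out either hPSC library or either 7.5 µM library (edgeR adjusted p of 0.113 to 0.185, log2 −3.21 to −3.35), and that of DPPA4 without hPSC replicate 2 (0.0542) or 7.5 µM replicate 1 (0.07). At the 3 lower doses DNMT3B was lost without either hPSC library (0.139 to 0.167), either 7.5 µM library (0.0654 to 0.0673), either library of its own dose at 3 and 5 µM (0.0628 to 0.177) or 0.7 µM replicate 1 (0.101). DPPA4 was lost there without hPSC replicate 2 (0.0526 to 0.0689) and at 0.7 µM without hPSC replicate 1 (0.0519). TDGF1, a coreceptor of Nodal, was lost at 7.5 µM without 7.5 µM replicate 1 (0.0507), and L1TD1 passed in all 10 such fits at every dose. SALL4, a zinc finger factor shared by stem cells and early embryonic tissues, was the partner that did not pass: it had 71.3 and 114 CPM at 7.5 µM, against 120 and 101 CPM in hPSC (log2 −0.26, adjusted p = 0.939, edgeR). Its level was 29.8 and 210 CPM at 0.7 µM, 26.5 and 181 CPM at 3 µM, and 22.1 and 155 CPM at 5 µM. At these doses replicate 1 lay below and replicate 2 above both hPSC libraries, so the means describe neither library.

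**Figure D2:**
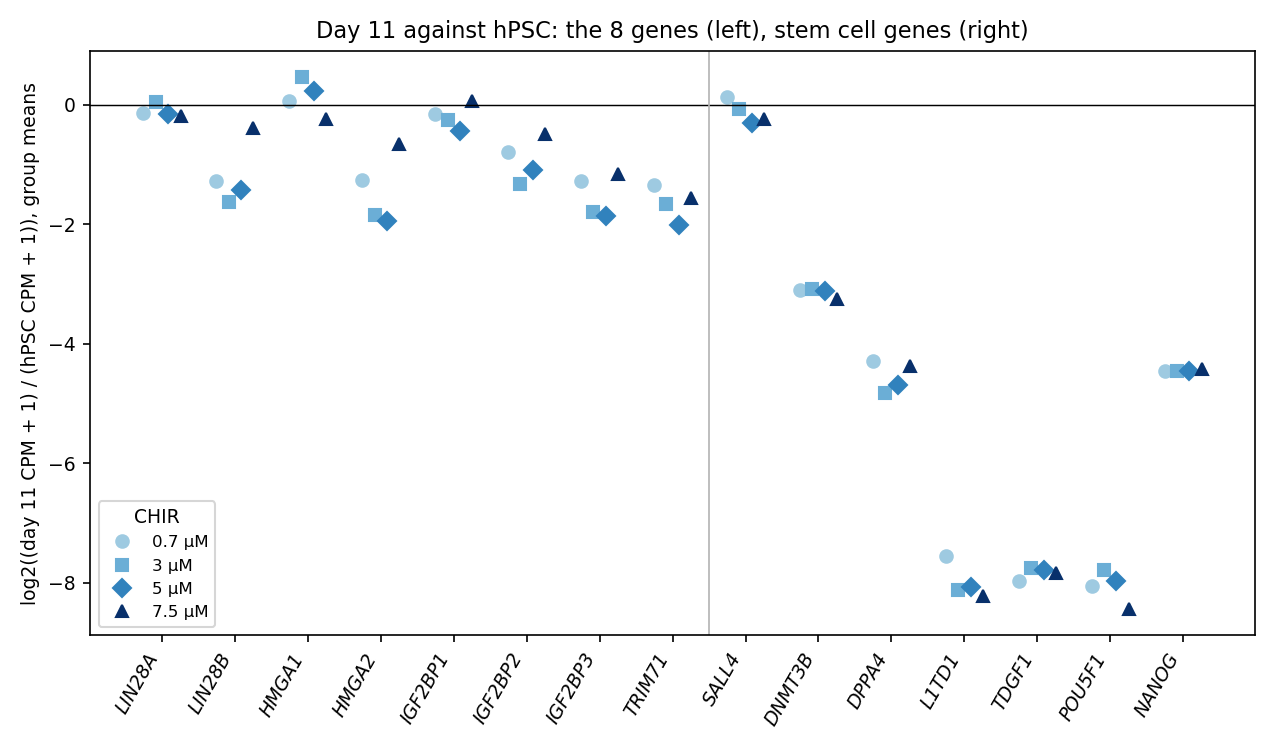
log2 ratio of the day 11 mean to the hPSC mean, each with 1 CPM added, for the 8 LIN28 axis genes and for 7 stem cell genes, by CHIR dose. By these means LIN28A, HMGA1, IGF2BP1 and SALL4 sit near 0, the other 5 members lie below 0 at all doses, and L1TD1, TDGF1 and POU5F1 lie lowest. At 0.7, 3 and 5 µM the replicates of HMGA1, IGF2BP1 and SALL4 lie on opposite sides of hPSC.

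The replicates of day 11 differed more than those of hPSC, and the size of the difference moved with transcript length. Replicate 2 over replicate 1 was 9.32, 10.5, 11.9 and 1.88 times for TRIM71 in order of dose, and 1.28 times in hPSC. For IGF2BP1 it was 3.57, 3.11, 3.06 and 1.13 times at day 11 and 1.19 times in hPSC. For HMGA1 it was 0.351, 0.413, 0.49 and 0.491 times at day 11 and 0.94 times in hPSC. The longest transcripts of the set, TRIM71 (8685 bases) and IGF2BP1 (8274 bases), were thus higher in replicate 2 at every day 11 dose, and the shortest, HMGA1 (2159 bases), was lower. Over 10784 genes of at least 5 CPM, the median log2 ratio of replicate 2 to replicate 1 was −1.04 for transcripts under 1.5 kb and 1.15 for those over 6 kb at 0.7 µM. These medians were −0.83 and 1.34 at 3 µM, −0.75 and 1.36 at 5 µM, −0.37 and 0.54 at 7.5 µM, and 0.02 and −0.09 in hPSC. What this difference contributes to the levels of the 8 genes was not tested.

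Set beside transcripts of like length, LIN28A (mean log2 ratio 0.23 over the 4 doses, at the 41.2 percentile of its length class), HMGA2 (0.49, 54.6), IGF2BP2 (0.46, 53.2) and IGF2BP1 (1.31, 61.2) were ordinary. LIN28B (1.33, 75.5) and IGF2BP3 (1.08, 80.4) leaned to replicate 2 more than most. TRIM71 (2.75, 97.9) exceeded the 95th percentile of its class, 2.35, and HMGA1 (−1.21, 4.4) stood near the bottom of its own. Relative to the shift of its length class, TRIM71 lay below the hPSC mean in all 8 day 11 libraries, by −2.66, −2.74, −3.3 and −1.84 on the log2 scale in replicate 1 and by −0.64, −0.78, −1.19 and −1.45 in replicate 2. HMGA2, IGF2BP2, IGF2BP3, TRIM71 and LIN28B, 5 of 8, lay below both stem cell libraries in all day 11 libraries on that relative scale, as did 19.8% of the 10784 genes. Because the contrast with hPSC chose the set, nothing is read from this count either.

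**Figure D3:**
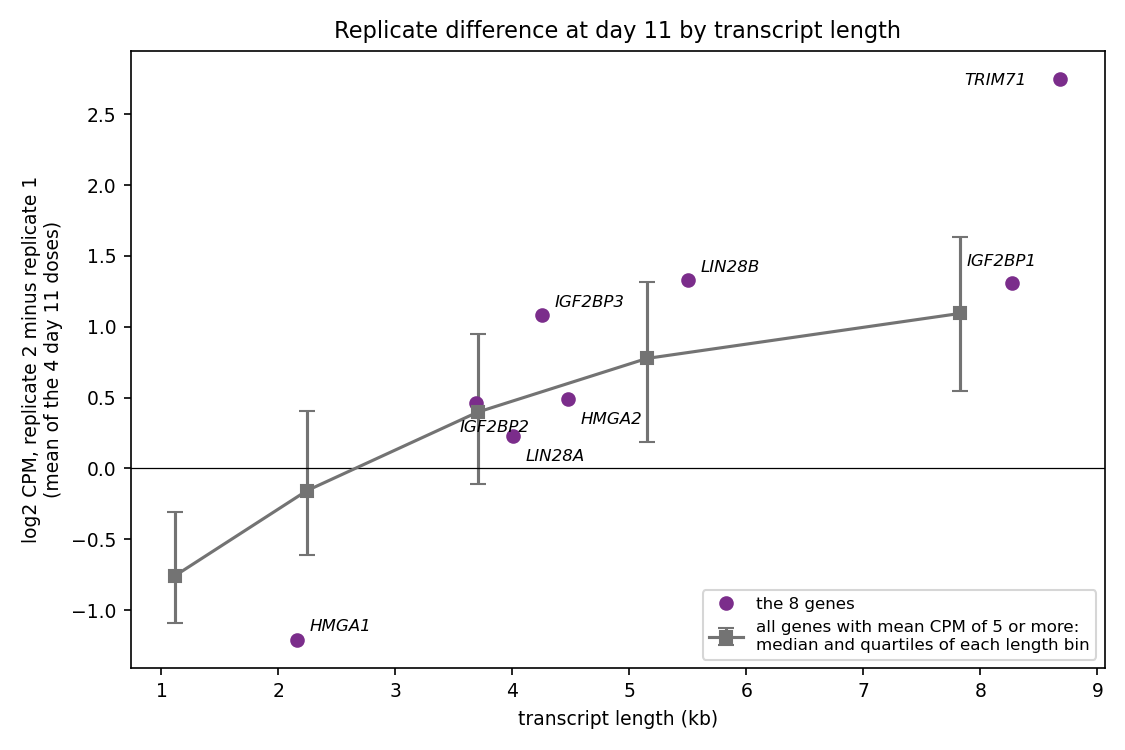
log2 ratio of replicate 2 to replicate 1, as the mean of the 4 day 11 doses, against transcript length (kb). The 8 genes are named, and grey squares give the median and quartiles of 10784 genes by length class. The grey medians climb with length, from −0.757 under 1.5 kb to 1.094 over 6 kb. TRIM71 (2.75) lies above them and HMGA1 (−1.21) below.

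The dose comparison within day 11 was not used to choose the genes and could be tested. No member passed in any comparison of doses (edgeR quasi-likelihood test without a block, 0 of 8), and no gene of the 18709 tested did either at 7.5, 5 or 3 µM against 0.7 µM (0.0% each), although 1641, 567 and 276 genes had an unadjusted p under 0.05. DESeq2 called 657, 129 and 17 genes in these comparisons and none of the 8. A slope over the log2 dose called 25 genes (0.134%) and no member. The sample descriptions give the day 11 replicates 1 and 2 different codes, and same-numbered libraries deviated together. A fit with the replicate as a block called 1967 genes at 7.5 µM against 0.7 µM (10.5%, 5.64% higher and 4.87% lower), 211 at 5 µM (1.13%), 4 at 3 µM (0.0214%) and 222 for the slope (1.19%), again with 0 of 8 members.

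LIN28A differed between 7.5 and 0.7 µM by −0.21 ± 0.41 on the log2 scale (SE; adjusted p = 0.966, edgeR), an interval of 2 SE from −1.03 to 0.61. With the block the interval was −0.82 to 0.39. Its slope was −0.03 ± 0.13 per doubling of dose. At 5 and 3 µM LIN28A differed from 0.7 µM by 0.07 ± 0.41 and 0.38 ± 0.41.

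LIN28B came nearest to the threshold. Both 7.5 µM libraries, 133.6 and 196.7 CPM, lay above both 0.7 µM libraries, 46.33 and 129.9 CPM, and the log2 difference was 0.74 ± 0.72 without the block (adjusted p = 0.88, edgeR) and 0.92 ± 0.29 with it, an interval of 0.35 to 1.49 (adjusted p = 0.0667, edgeR). Within replicate 1 the log2 ratio of 7.5 to 0.7 µM was 1.53 and within replicate 2 it was 0.60, while transcripts of its length class shifted by 0.54 and 0.15. The sign of this difference was positive in every fit that left out 1 library.

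HMGA2 and IGF2BP2 were the other members whose 7.5 µM libraries both exceeded both 0.7 µM libraries. The share of all genes separated in this way is not given, so nothing is read from the number of such members. HMGA2 differed by 0.44 ± 0.43 (interval −0.42 to 1.31, adjusted p = 0.877, edgeR), and its ratios were 1.29 within replicate 1 and 0.07 within replicate 2. IGF2BP2 differed by 0.14 ± 0.36 (interval −0.58 to 0.85), with ratios of 0.16 and 0.45.

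For IGF2BP1 and TRIM71 the replicates disagreed on the direction. IGF2BP1 had a log2 ratio of 7.5 to 0.7 µM of 1.32 within replicate 1 and −0.34 within replicate 2, and TRIM71 of 1.62 and −0.68, where transcripts over 6 kb shifted by 0.78 and 0.12. The fitted difference of TRIM71 was −0.38 ± 1.42 without the block, an interval of −3.23 to 2.47, and 0.52 ± 0.51 with it. LIN28A (0.41 and −0.43), IGF2BP3 (0.53 and −0.11) and HMGA1 (−0.45 and 0.04) also changed sign between replicates. In all, 3 of 8 members kept 1 sign in both replicates at 7.5 µM, and 6 of 8 did so at each of 5 and 3 µM. The share of all genes that kept 1 sign is not given, so nothing is read from these counts.

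Single libraries decided the blocked calls. Without 7.5 µM replicate 2, 4 members passed as higher at 7.5 than at 0.7 µM: LIN28B by 1.27 (adjusted p = 0.00252, edgeR with block), TRIM71 by 1.39 (0.00171), HMGA2 by 0.84 (0.0376) and IGF2BP1 by 0.92 (0.0236), in a fit that called 29.1% of genes (5613). Without 7.5 µM replicate 1, TRIM71 passed as lower, by −0.91 (0.0244), in a fit that called 11.3% of genes, and LIN28B (0.40), HMGA2 (0.03) and IGF2BP1 (−0.42) did not pass. At 5 against 0.7 µM, TRIM71 passed as lower by −0.77 when either 7.5 µM library was left out (adjusted p = 0.0295 and 0.0301, edgeR with block), in fits that called 4.39 and 4.23% of genes.

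**Figure D4:**
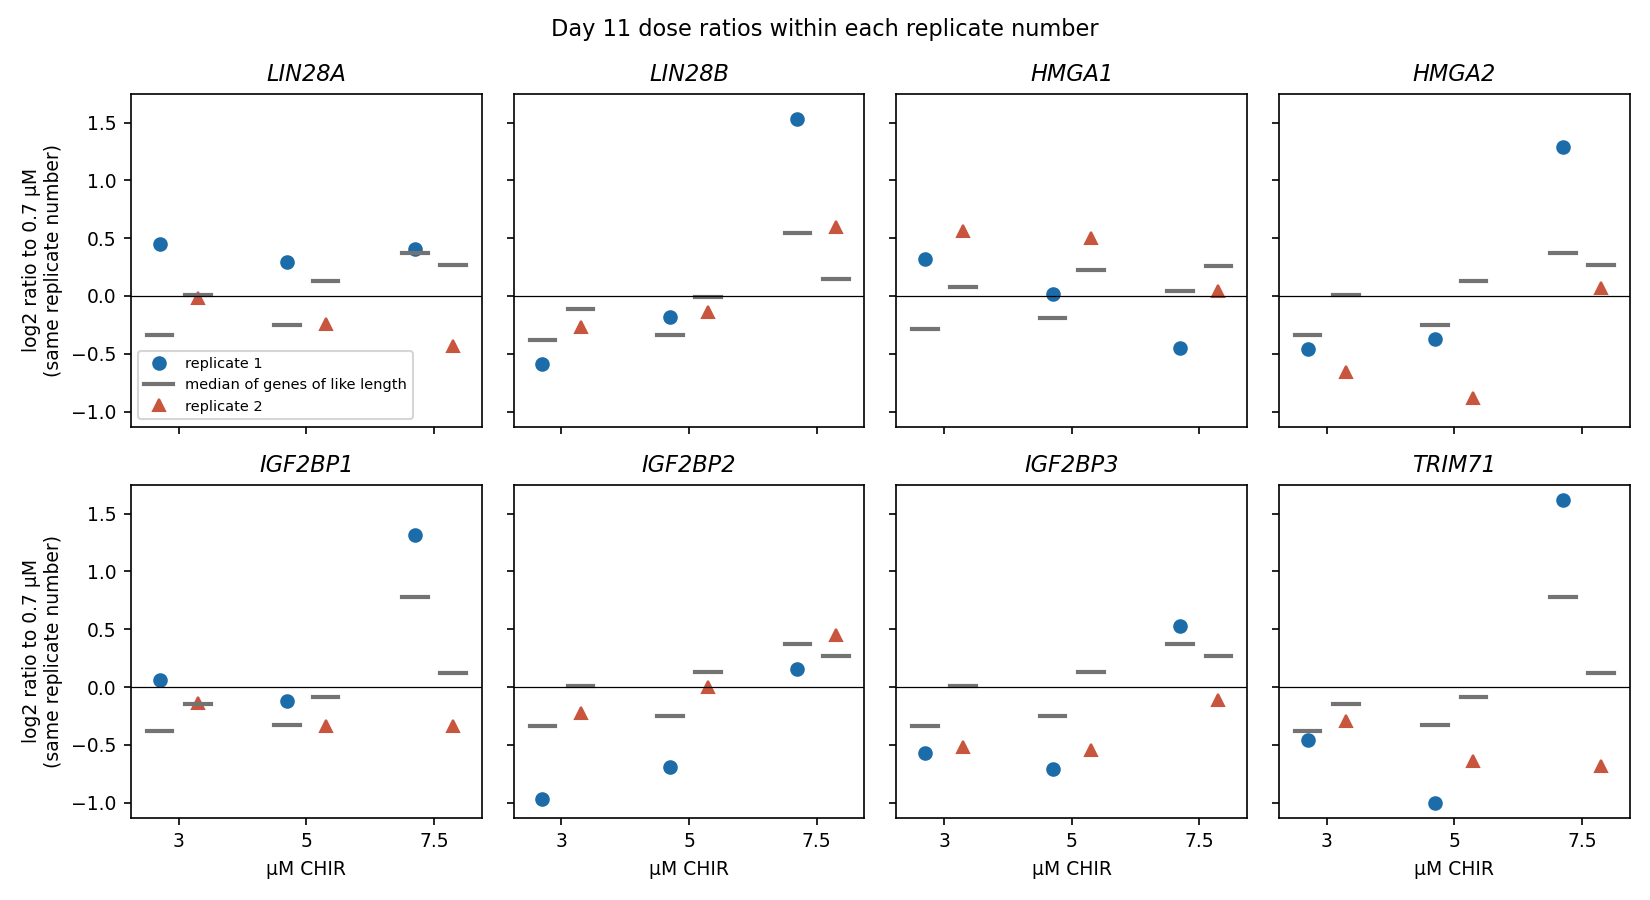
log2 ratio of each of the 3 higher CHIR doses to 0.7 µM within replicate 1 and within replicate 2 for the 8 genes; the grey lines mark the median of genes of like transcript length. At 7.5 µM LIN28B, HMGA2 and IGF2BP2 are above 0 in both replicates, and TRIM71 and IGF2BP1 are on opposite sides of 0.

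Cells at 7.5 µM also differed from those at 0.7 µM in cycling marker RNA, which summed to 1070 to 1450 CPM at 7.5 µM, 348 to 606 CPM at 0.7 µM and 2270 to 2700 CPM in hPSC. MKI67, a protein of dividing cells, was at 276 and 390 CPM with 7.5 µM and 72.5 and 110 CPM with 0.7 µM (blocked log2 difference 1.71 ± 0.24, adjusted p = 0.00258, edgeR), and 5 of 6 cycling markers passed as higher with the block and 0 without. Of all 18709 genes, 5.64% passed as higher with the block and 0 without. Mesoderm markers summed to 12.1 to 23.2 CPM at 7.5 µM and 0.737 to 1.27 CPM at 0.7 µM. Most of the 7.5 µM sum came from 1 gene, T. TBX6 and MESP1 went the other way, with means of 0.367 and 0.106 CPM at 7.5 µM and 0.656 and 0.213 CPM at 0.7 µM. MIXL1 had means of 0.634 CPM at 7.5 µM and 0.109 CPM at 0.7 µM. The marker T (brachyury) was at 11.5 and 21.6 CPM with 7.5 µM and 0.0487 and 0 CPM with 0.7 µM, and passed as higher in the slope over dose (adjusted p = 0.0429, edgeR; 0.0069 with the block), a call kept without the block in 1 of 8 fits that left out 1 library. The part of cycling cells, or of cells with T RNA, in the LIN28B and HMGA2 levels was not tested.

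The genes that make and remove let-7 showed no call without the block. Of 13 processing and turnover genes, 0 passed in any dose comparison or against hPSC, with median log2 differences at 7.5 against 0.7 µM of 0.08, where all genes had −0.03. TUT4, the uridylyltransferase that LIN28A recruits, was at 44.4 and 324 CPM with 0.7 µM, 109 and 184 CPM with 7.5 µM, and 106 and 81.4 CPM in hPSC. DICER1, which cuts the let-7 precursor, was at 59.5 and 282 CPM with 0.7 µM, 117 and 268 CPM with 7.5 µM, and 247 and 188 CPM in hPSC. For both, replicate 2 was the higher library at each of these day 11 doses, as for TRIM71. With the block, 4925, 5205, 5027 and 3564 of the 19672 genes passed as lower than hPSC in order of dose. As higher, 4139, 4658, 4410 and 3274 did. Of the 13 processing and turnover genes, 3, 4, 4 and 1 passed as lower, and none as higher. AGO2, the Argonaute protein that carries mature let-7, was among them at 7.5 µM, with 6.68 and 18.5 CPM, against 35.9 and 40.3 CPM in hPSC (log2 −1.78 ± 0.28, adjusted p = 0.000384, edgeR with block).

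Of 5 transcripts that host let-7 genes, MIRLET7BHG was at 0 CPM in 8 of the 10 libraries and at most 0.0375 CPM in the others, and MIR99AHG was at 0 to 0.564 CPM. HUWE1, whose intron holds MIRLET7F2 and MIR98, was at 214 and 639 CPM with 0.7 µM, 426 and 674 CPM with 7.5 µM, and 745 and 930 CPM in hPSC. Of 4 host transcripts tested, none passed in any dose comparison or against hPSC without the block. With it 2 passed as lower than hPSC at each of 0.7, 3 and 5 µM. At these doses 4925, 5205 and 5027 of all 19672 genes did.

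Other reported let-7 targets were tested as a list of 20. None passed between doses without the block (median 0.05 at 7.5 against 0.7 µM, all genes −0.03), and with the block 3 passed as higher and 1 as lower at 7.5 µM. In that blocked fit 5.64% of all 18709 genes passed as higher and 4.87% as lower. CDK6, a cyclin-dependent kinase that drives entry into the cycle, was at 83.3 and 120 CPM with 7.5 µM and 35.6 and 29.2 CPM with 0.7 µM (log2 1.44 ± 0.28, adjusted p = 0.0117, edgeR with block), a call lost without 0.7 µM replicate 2 (0.0913). PLAGL2, a zinc finger transcription factor, was at 94.4 and 103 CPM with 7.5 µM and 30.1 and 48.9 CPM with 0.7 µM (1.19 ± 0.25, adjusted p = 0.0148, edgeR with block), lost without 0.7 µM replicate 1 (0.117). CCND1, cyclin D1, was at 141 and 208 CPM with 7.5 µM and 58.0 and 78.6 CPM with 0.7 µM (1.18 ± 0.33, adjusted p = 0.0494, edgeR with block), and passed in 3 of the 8 fits that left out 1 library, not without either 0.7 or 5 µM library or 7.5 µM replicate 2 (0.07 to 0.259). CCND2, cyclin D2, went the other way, at 299 and 316 CPM with 7.5 µM and 525 and 633 CPM with 0.7 µM (−1.07 ± 0.26, adjusted p = 0.0288, edgeR with block), and passed in 4 of those 8 fits, not without either 0.7 µM library or replicate 1 at 3 or 5 µM (0.0528 to 0.149). For all 4 genes the libraries of the 2 doses did not overlap.

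Against hPSC without the block, CCND2 was higher at 0.7 µM (1.70 ± 0.40, adjusted p = 0.0328, edgeR) and at 3 µM (1.72, 0.0299), and CDK6 was lower at 3 µM (−1.69, adjusted p = 0.0299, edgeR). No target passed at 7.5 µM. These calls of CCND2 and CDK6 did not hold when either hPSC library was left out (adjusted p of 0.106 to 0.245, edgeR), nor when either library of the same dose or of 7.5 µM was (0.056 to 0.172). With the block 4 of the 20 were higher at every dose and 4, 7, 7 and 4 lower. Over all 19672 genes, 4139, 4658, 4410 and 3274 were higher and 4925, 5205, 5027 and 3564 lower.

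Of 5 reported TRIM71 targets, CDKN1A, the cell cycle inhibitor p21 whose mRNA TRIM71 is known to repress in mouse stem cells, was the only one to pass against hPSC without the block. It was at 24.4 and 151 CPM with 0.7 µM, 160 and 284 CPM with 3 µM, 155 and 332 CPM with 5 µM, 65.8 and 83.1 CPM with 7.5 µM, and 26.2 and 37.4 CPM in hPSC. The groups at 3, 5 and 7.5 µM lay above both stem cell libraries, and the differences passed at 3 µM (3.12 ± 0.79, adjusted p = 0.0382, edgeR) and at 5 µM (3.13, 0.0417). Neither call held without either hPSC library (adjusted p of 0.201 to 0.247), either 7.5 µM library (0.0712 to 0.0774) or either library of its own dose (0.0858 to 0.115), and at 5 µM without either 3 µM library (0.0523 and 0.0534). With the block 2, 3, 2 and 3 of the 5 were higher than hPSC in order of dose and 2, 2, 2 and 0 lower. Among all 19672 genes, 4139, 4658, 4410 and 3274 were higher and 4925, 5205, 5027 and 3564 lower. None of the 5 passed between doses in either fit.

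The insulin-like growth factor axis, which includes IGF2, an mRNA that the IGF2BP proteins bind, had 14 genes tested. Against hPSC 4, 4, 4 and 3 passed as higher (IGF2, H19, IGFBP1 and, except at 7.5 µM, IGFBP2) and 2 as lower at each dose (IGFBP4 and IGFBP6), with medians of 0.82, 0.74, 1.08 and 0.79 on the log2 scale in order of dose. The 4 IGFBP genes lost every such call when either hPSC library was left out (adjusted p of 0.052 to 0.292, edgeR), and some of their calls were also lost without 1 day 11 library. IGF2, the fetal growth factor, was at 6.67 and 47.2 CPM with 0.7 µM, 37.4 and 54.7 CPM with 3 µM, 47.2 and 74.0 CPM with 5 µM, 30.3 and 52.5 CPM with 7.5 µM, and 2.91 CPM in both hPSC libraries. It passed at every dose (log2 3.36, 4.32, 4.60 and 3.81, adjusted p of 0.016 to 0.0363, edgeR), and at no dose when either hPSC library was left out. Of the 10 fits that left out 1 library, it passed in 3, 7, 7 and 6 in order of dose. Its log2 difference at 0.7 µM was 1.38 without 0.7 µM replicate 2. H19, the long non-coding RNA next to IGF2 and a reported sponge of let-7, was at 43.9 and 108 CPM with 0.7 µM, 92.9 and 143 CPM with 3 µM, 55.5 and 109 CPM with 5 µM, 6.56 and 15.4 CPM with 7.5 µM, and 2.42 and 0.798 CPM in hPSC. It passed against hPSC at each dose (log2 5.71, 6.52, 5.87 and 2.75, adjusted p of 0.00417 to 0.0463, edgeR), and with hPSC replicate 2 left out it passed at none (0.0526 to 0.295). At 7.5 µM it also missed without hPSC replicate 1 or any 1 library of 3, 5 or 7.5 µM (0.0596 to 0.234). With the block 7, 7, 8 and 6 of the 14 were higher and 2, 4, 4 and 4 lower. These fits called 4139, 4658, 4410 and 3274 of all 19672 genes higher and 4925, 5205, 5027 and 3564 lower.

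H19 was also the clearest difference between doses on this list. Both 7.5 µM libraries lay below both libraries of each other dose, and the blocked log2 difference from 0.7 µM was −2.95 ± 0.31 (adjusted p = 0.000789, edgeR with block), which held in all 8 fits that left out 1 library. IGFBP2, a secreted binding protein of IGF2, was at 311 and 209 CPM with 7.5 µM and 971 and 530 CPM with 0.7 µM (−1.67 ± 0.27, adjusted p = 0.00491, edgeR with block; 8 of 8). Without the block neither passed. IGF1, the other ligand, was at most 6.6 CPM and passed as higher at 7.5 and at 5 µM with the block, but not without 0.7 µM replicate 2 (0.115 at 7.5 µM and 0.138 at 5 µM) nor at 5 µM without 5 µM replicate 2 (0.164).

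Genes of the later progenitor and glial program, the state that follows the decline of LIN28 in the mouse, were tested as a list of 8, and none passed between doses without the block. With it FABP7, a radial glia protein, was lower at 7.5 µM, at 16.7 and 14.8 CPM, against 129 and 40.4 CPM with 0.7 µM (−2.24 ± 0.42, adjusted p = 0.0101, edgeR with block). ID4, an inhibitor of differentiation, was at 17.4 and 14.7 CPM with 7.5 µM and 54.7 and 47.7 CPM with 0.7 µM (−1.85 ± 0.25, adjusted p = 0.00237, edgeR with block; 8 of 8 fits that left out 1 library). SOX9, a factor of glial competence, was at 7.99 and 15.9 CPM with 7.5 µM and 15 and 53.6 CPM with 0.7 µM (−1.55 ± 0.31, adjusted p = 0.0139, edgeR with block). FABP7 no longer passed without either 0.7 µM library (0.0528 and 0.0555), nor did SOX9 without 0.7 µM replicate 2 (0.107). Against hPSC without the block, HES5, a Notch effector, was higher at every dose, ID4 was higher at 0.7 and 3 µM, and NFIB, a factor of the glial switch, was lower at 7.5 µM, where it had 0.624 and 0.998 CPM, against 10.7 and 8.1 CPM in hPSC (−3.54, adjusted p = 0.049, edgeR). NFIB lost its call without either hPSC, 5 µM or 7.5 µM library (adjusted p of 0.0603 to 0.281), and ID4 at 3 µM without any 1 of the 10 libraries (0.0545 to 0.268). At 0.7 µM HES5 (0.0562) and ID4 (0.097) lost theirs without hPSC replicate 2. With the block 3, 3, 1 and 1 of the 8 were higher than hPSC in order of dose and 1, 2, 2 and 2 lower. Across all 19672 genes, 4139, 4658, 4410 and 3274 were higher and 4925, 5205, 5027 and 3564 lower.

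Likeness of pattern is described by Pearson correlations of log2(CPM + 1) over the 10 hPSC and day 11 libraries, among 10471 genes. These libraries share depth, the replicate difference and its link to length, so the values are a description only. The genes most like LIN28A, whose level ranged over only 0.74 on the log2 scale, were RP11-651P23.4 (0.865), PIM1 (0.852), PLEKHO2 (0.852), EIF4BP6 (0.8) and HSP90AB2P (0.791). The genes most like TRIM71 were MSL2 (0.997), UBR4 (0.995) and KPNA3 (0.995), and those most like LIN28B were KIAA0947 (0.996), PTPN12 (0.996) and PDZD8 (0.995). HMGA2 ran with SASH1 (0.98), YPEL5 (0.973) and NUP54 (0.97), and HMGA1 with TUFM (0.983), PRMT1 (0.982) and MRPL54 (0.981). IGF2BP1 ran with STAT3 (0.995), RTN3P1 (0.992) and RSPRY1 (0.992), IGF2BP2 with MMD (0.989), THADA (0.988) and ZNF652 (0.987), and IGF2BP3 with SACM1L (0.995), FASTKD2 (0.992) and TBC1D4 (0.99).

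Within the set, LIN28B correlated with IGF2BP3 at 0.93, TRIM71 at 0.92, IGF2BP2 at 0.91, HMGA2 at 0.9 and IGF2BP1 at 0.85, over the same 10 libraries. LIN28A correlated with IGF2BP1 at 0.62, TRIM71 at 0.56, IGF2BP3 at 0.33, LIN28B at 0.31, HMGA2 at 0.23 and IGF2BP2 at 0.03. HMGA1 ran against all 7 others, at −0.41 to −0.89.

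The day 16 and day 30 tables need a caution before any level is read from them. They held 5.41 to 6.34 M gene counts per library, and 33.2 to 40.3% of these were assigned to antisense-type genes, against 0.259 to 0.355% in the earlier tables. Protein-coding genes took 49.0 to 57.0%, against 91.4 to 95.3%. SOX2 had 0 counts in all 4 later libraries and 2749 to 19849 in the earlier ones, ACTB was at 78.1 to 486 CPM, against 985 to 3700 CPM, and MT-ND6, which is coded on the light strand of mitochondrial DNA, was at 2960 to 6560 CPM, against 52.4 to 292 CPM. Day 16 replicate 1 stood apart, with ACTB at 486 CPM and GAPDH at 290 CPM. In the other later libraries ACTB was at 78.1 to 81.6 CPM and GAPDH at 71.0 to 76.1 CPM. Levels in these tables are therefore not read as expression of the annotated gene, and they are not compared with day 11. The cause was not tested.

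In those tables LIN28A had 1 and 4 counts at day 30 and 98 and 42 at day 16, and TRIM71 had 8 and 20 at day 30 and 125 and 39 at day 16. HMGA1 was the highest member, at 22.79 and 22.51 CPM at day 30 and 59.02 and 44.58 CPM at day 16. Every member had more CPM in day 16 replicate 1, the library that stood apart, than in day 16 replicate 2. Between day 30 and day 16, 2 of 8 members passed, both lower at day 30, where 11.0% of 15435 genes passed, 4.2% as lower: LIN28A by −4.43 ± 0.95 (adjusted p = 0.00168, edgeR) and IGF2BP1 by −2.40 ± 0.69 (adjusted p = 0.0186, edgeR; 0.113 with the replicate block, where 6.91% of genes passed). Without either day 30 library no member kept a call, in fits that left 1 library at day 30 and called few genes of any kind. The median log2 difference of the 8 members was −1.72 without day 30 replicate 1 and −1.79 without replicate 2. It was −1.77 with all 4 libraries, where the median over all genes tested was −0.18. These calls and medians describe counts only and are not read as a fall in expression. Without day 16 replicate 2 all 8 passed, in a fit that called 46.6% of genes, and without replicate 1, 5 passed, in a fit that called 26.9%. RPSAP52, on the strand opposite HMGA2, had 31 and 20 counts at day 30 and 92 and 234 at day 16, and MALSU1, opposite IGF2BP3, had 936 and 1164 at day 30 and 3499 and 2977 at day 16.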

How the data were processed

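RNA-seq of 14 libraries was used as the read counts per gene deposited by the authors. Per the submitters' processing notes, STAR 2.4.2a, featureCounts 1.4.2, HTSeq 0.5.3, DESeq2 1.12.4 and hg19 were used. What kit and strand setting were used, and with which options reads were counted, is not given in the sources used here. Early tables list 57445 genes, the late ones 57820, and 57230 are shared. Entries for reads assigned to no gene (37.41 to 44.33% of counts at hPSC and day 11) were left out. GENCODE 29 gave names and lengths by identifier for 51812 of the early tables' genes. Depth was 20.52 to 44.76 M gene counts in the early and 5.41 to 6.34 M in the late libraries.

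Counts were tested with edgeR 4.0.16 and limma 3.58.1 in R 4.3.3 (TMM, filterByExpr, robust quasi-likelihood F-test, Benjamini-Hochberg, threshold 0.05): 18709 genes between day 11 doses, 19672 against hPSC and 15435 for day 30 against day 16. The fits were tested on simulated data. CPM are counts per 1 M gene counts without TMM unless stated. Alternatives were DESeq2 1.42.0 as test or scaling, no filter, a replicate block, each library left out, TMM-scaled levels and levels without the 50 highest rows. Python 3.11.15, pandas 2.3.3 and numpy 2.4.6 were used.

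Same-numbered libraries deviated together at day 11 (correlations of 0.64 to 0.85 over genes), but not between hPSC and day 11 (−0.11 to −0.17) or day 16 and day 30 (−0.21). The day 11 block therefore comes from the data and from 1 code per replicate number in the sample descriptions; both fits are given.

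The 8 genes and all lists were chosen with earlier results of these data known. Named list genes are up to 4 that passed with the largest fold and at least 5 CPM in the higher group, or 2 of the highest CPM where none passed; others named were chosen after their values were seen. Likeness compared genes of at least 5 CPM and a log2 range of at least 1. List genes are not reported for day 30 against day 16. One result of the let-7 target list is not reported here.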

Additional observations from a re-analysis of the deposited data

How the results depend on the processing

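Counts of genes called between doses at 7.5, 5 and 3 µM against 0.7 µM were 0 by edgeR without a block, and 657, 129 and 17 with DESeq2, 29 and 6 at 7.5 and 5 µM without a filter, and 1967, 211 and 4 with the replicate block; the slope gave 330 with DESeq2 and 222 with the replicate block. Against hPSC, 7.5, 5, 3 and 0.7 µM gave 3537, 4525, 5257 and 4400 genes with DESeq2 and 6838, 9437, 9863 and 9064 with the replicate block. Day 30 against day 16 gave 1067 genes and 1 member with the replicate block. No other call of a member changed under the replicate block.

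The sign changed for IGF2BP1 at 7.5 µM (−0.01 with DESeq2's test or size factors) and at 3 µM (−0.01 without a filter), and with the replicate block for IGF2BP3 (0.05) and TRIM71 (0.52) at 7.5 µM and for the slopes of IGF2BP1 (0.05) and TRIM71 (0.03). The cause was not tested.

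Leaving out 1 library at a time, with or without the block, gave 0 to 5613 genes at 7.5 µM, 0 to 845 at 5 µM, 0 to 154 at 3 µM and 0 to 251 for the slope, 249 to 2262, 181 to 2612, 224 to 3197 and 115 to 2097 against hPSC at 7.5, 5, 3 and 0.7 µM (lowest without hPSC replicate 2), and 39 to 8078 for day 30 against day 16. Members called were 0 to 4 at 7.5 µM, 0 to 1 at 5 µM and 0 to 8 for day 30 against day 16. The log2 differences at 3, 5 and 7.5 µM from 0.7 µM and the slope ranged as follows: HMGA1 −0.39 to 1.63, −0.54 to 1.26, −1.16 to 0.49 and −0.29 to 0.12; IGF2BP1 −0.78 to 1.19, −1.09 to 0.90, −0.59 to 1.22 and −0.20 to 0.31; IGF2BP3 −0.93 to 0.30, −1.21 to 0.13, −0.52 to 0.64 and −0.18 to 0.16; LIN28A −0.01 to 0.84, −0.32 to 0.54, −0.61 to 0.24 and −0.19 to 0.04; TRIM71 −2.48 to 2.09, −3.14 to 1.62, −1.24 to 1.96 and −0.39 to 0.49. HMGA2 ranged over −0.83 to 0.12 at 3 µM and −0.10 to 0.26 in slope, IGF2BP2 over −0.07 to 0.30 at 7.5 µM, and LIN28B over −1.17 to 0.66 at 3 µM and −0.89 to 0.77 at 5 µM. LIN28B at 7.5 µM kept a positive sign in all of these fits.

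The readings by replicate 2 alone and those relative to transcript length were added after seeing the data. Each interval given spans 2 SE on either side of the fitted difference. With 2 libraries a group, a gene that did not pass is not thereby shown to be unchanged.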
